A study of Mus musculus with 9 samples.

Results

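The lysosomal hydrolase genes followed here numbered 7 of 909 named genes, on 9 single-colour arrays of mouse CD8 T cells: Gaa, Hexa, Arsa, Arsb, Gusb, Aga and Lipa. They were found by matching the RefSeq accession in each probe set's name to the RefSeq gene table, which gave 7 probe sets, 1 per gene, of 1246 on the array. None of the 7 probe sets carried a suffix that marks binding to several transcripts. All cells came from female mice of the B10D2 strain and carried a transgenic T cell receptor; the cells that met antigen are described as purified. The deletion group (3 arrays) was given its cognate antigen in vivo as a weak signal, the anergy group (3 arrays) as a strong signal, and the naive group (3 arrays) was the control. The design asks whether glycosylation genes differ between the first 2 of these conditions, which both end in tolerance. The labels do not name the receptor or the antigen, and do not say that the replicates came from separate animals, so a p-value here reflects the spread between samples whose variation may be technical. Values are log2 expression from RMA, a method that summarises the probes of a probe set into 1 value per array.

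Lysosomes break down glycans, lipids and proteins with acid hydrolases that are made in the endoplasmic reticulum, tagged with mannose 6-phosphate in the Golgi and carried onward by mannose 6-phosphate receptors. Each enzyme removes a particular sugar, sulfate or fatty acid, so that loss of one enzyme lets its substrate build up, as in the human lysosomal storage diseases. In a T cell these enzymes recycle surface and intracellular glycoconjugates and membrane lipids. Gaa is the acid alpha-glucosidase that degrades glycogen, Hexa is the alpha subunit of beta-hexosaminidase A, which cleaves ganglioside GM2, and Gusb is the beta-glucuronidase of glycosaminoglycan breakdown. Arsa removes sulfate from sulfatide and Arsb removes it from the N-acetylgalactosamine of chondroitin and dermatan sulfate. Aga cuts the bond between N-glycan and asparagine, and Lipa hydrolyses cholesteryl esters and triglycerides.

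The promoter windows of the 5 genes with the largest differences between cells that had met antigen and naive cells are shown here. The genes lower in anergy cells (Gaa, Hexa, Arsa and Lipa) can thus be read beside Arsb, which was higher. Gusb, also called higher in anergy cells but with a smaller difference, is not printed. The sequences are RefSeq's (GRCm38.p6) and run from 250 bases before the gene's start to 50 bases after it, 5′ to 3′ on the gene's own strand. Capitals mark 2 motifs: CACGTG, the E-box core recognised by TFEB and related factors, and GGGCGG or its reverse complement CCGCCC, the GC box of Sp1-type factors. The Gaa window is chr11:119267713-119268012 on the plus strand, Hexa chr9:59539290-59539589 on the plus strand, Arsa chr15:89477375-89477674 on the minus strand, Lipa chr19:34527425-34527724 on the minus strand and Arsb chr13:93771429-93771728 on the plus strand.
Gaa: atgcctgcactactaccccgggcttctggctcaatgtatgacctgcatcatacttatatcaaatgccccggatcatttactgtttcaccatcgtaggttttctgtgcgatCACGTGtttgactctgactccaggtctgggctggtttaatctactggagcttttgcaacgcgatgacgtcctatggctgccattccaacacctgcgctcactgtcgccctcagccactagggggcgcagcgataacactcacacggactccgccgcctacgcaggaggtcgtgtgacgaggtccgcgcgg
Hexa: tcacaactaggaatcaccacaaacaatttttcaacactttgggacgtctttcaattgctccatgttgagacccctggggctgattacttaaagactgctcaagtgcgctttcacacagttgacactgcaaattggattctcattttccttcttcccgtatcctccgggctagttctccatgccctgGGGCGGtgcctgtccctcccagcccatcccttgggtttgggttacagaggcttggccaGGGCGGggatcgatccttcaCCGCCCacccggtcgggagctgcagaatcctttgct
Arsa: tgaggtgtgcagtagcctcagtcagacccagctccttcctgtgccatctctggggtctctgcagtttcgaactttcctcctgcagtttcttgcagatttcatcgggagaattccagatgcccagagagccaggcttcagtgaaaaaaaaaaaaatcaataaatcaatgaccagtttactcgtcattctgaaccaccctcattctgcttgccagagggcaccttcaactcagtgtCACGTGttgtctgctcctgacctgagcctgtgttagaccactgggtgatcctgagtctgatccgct
Lipa: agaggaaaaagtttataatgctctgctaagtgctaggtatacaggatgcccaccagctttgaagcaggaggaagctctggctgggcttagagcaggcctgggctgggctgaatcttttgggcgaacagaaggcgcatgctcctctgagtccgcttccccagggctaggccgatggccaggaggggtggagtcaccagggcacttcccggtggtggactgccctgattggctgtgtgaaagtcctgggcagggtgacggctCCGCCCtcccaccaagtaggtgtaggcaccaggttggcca
Arsb: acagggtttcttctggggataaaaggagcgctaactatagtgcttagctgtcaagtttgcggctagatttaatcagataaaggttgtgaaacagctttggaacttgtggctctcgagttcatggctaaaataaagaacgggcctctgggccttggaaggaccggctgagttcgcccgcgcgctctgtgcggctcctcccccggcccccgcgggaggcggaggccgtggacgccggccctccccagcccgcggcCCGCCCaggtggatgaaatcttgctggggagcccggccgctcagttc

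The E-box core was present in the windows of Gaa, 140 bases before the start, and Arsa, 16 bases before it, and in no other of the 6 windows found for the 7 genes. Both strands were searched, and the core reads the same on either. It is held by 7.15% of all 32851 windows of this length, by 8.11% of the 875 windows of genes named on the array and by 8 of 22 windows (36.4%) of the other lysosomal genes described below. The longer form TCACGTGA was in none of the 6 windows, in 4 of 22 windows (18.2%) of the other lysosomal genes, in 1.71% of those of genes named on the array and in 0.974% of all windows. A GC box was in the windows of Hexa (3 matches), Arsb (1) and Lipa (1), which is 3 of 6 windows. It was in 17 of 22 windows (77.3%) of the other lysosomal genes, in 51.1% of those of genes named on the array and in 35.7% of all windows, so the share among the hydrolases was near that of the array. Of the 4 genes lower in anergy cells, Gaa and Arsa thus held the E-box core and Hexa and Lipa the GC box, which Arsb held too. A match describes letters and is not a binding site. TATAAA, the letters of the TATA box, was matched on either strand in the window of Lipa and in 0 of 22 windows of the other lysosomal genes. It was in 12.1% of those of genes named on the array and in 13.6% of all windows. The Lipa match lay on the opposite strand, as TTTATA on the gene's own strand, at position -239 relative to the start. That is near the far end of the window, so the match does not show a TATA-box promoter. The window of Gusb held none of these motifs, and Aga had no entry.

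The arrays were alike in median, at 4.44 to 4.58. Anergy replicate 3 stood apart: its deviations from the group means had an SD of 0.166 (log2). The other 8 arrays had 0.095 to 0.128. The interquartile range of anergy replicate 3 was also narrower, at 3.415, against 3.64 to 3.83 for the other 8. Its mean over the 7 hydrolases was 7.48, against 7.67 and 7.64 on anergy replicates 1 and 2. The part of this array's spread in the hydrolase results was not tested. Of 8 CD8 T cell markers listed, Cd2 alone had a named probe set, so the CD8 label was not checked. Its log2 values were 9.82 to 10.38 in deletion cells, 9.33 to 9.48 in anergy cells and 11.53 to 11.68 in naive cells. Cd2 was lower than in naive cells in deletion cells (limma adjusted p = 1.7e-05) and in anergy cells (1.0e-06). It was higher in deletion than in anergy cells (0.0390). Of 21 listed macrophage and dendritic cell markers, whose cells are rich in lysosomes, 13 were measured, and 8 of the 13 had a mean under 4 in each group. The summed linear level of the 13 was 336 to 414 in deletion cells, 276 to 305 in anergy cells and 271 to 286 in naive cells. Against naive cells, Cd83, which activated T cells also express, was higher in both treated groups and Ly75 was lower in both; Cd83 was also higher in deletion than in anergy cells. Without Cd83, left out after its values were seen, the sum was 205 to 242 in deletion cells, 209 to 218 in anergy cells and 254 to 262 in naive cells. Of 4 measured B cell markers 2 were higher and 1 lower in deletion cells, and 1 and 1 in anergy cells, against naive cells; of 5 granulocyte, platelet and erythroid markers 1 was higher in each treated group, and of 2 natural killer cell markers 0 passed in limma (0 at an unadjusted p under 0.05). The part of such cells in the lysosomal results was not tested. In such bulk samples fewer cells of a type and less RNA per cell cannot be told apart.

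**Figure D1:**
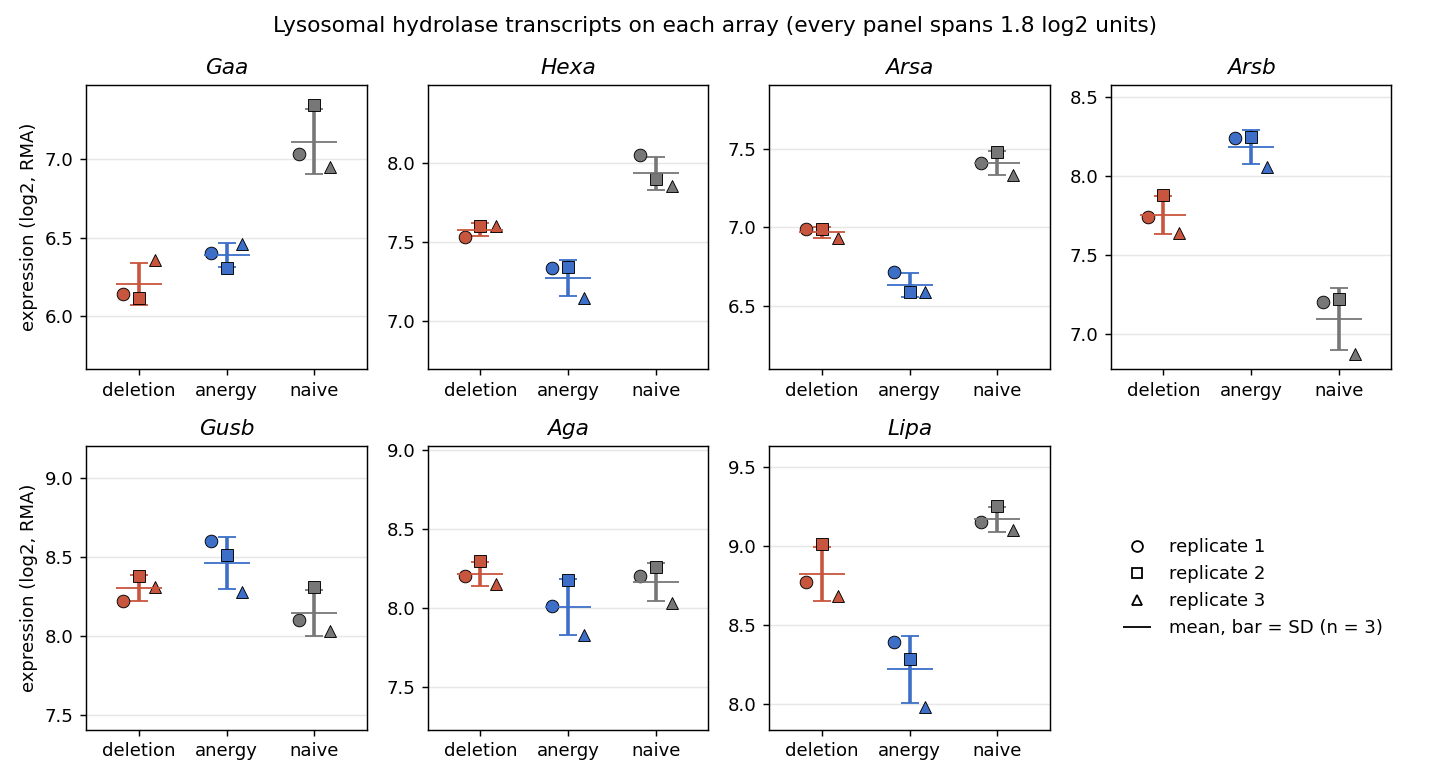
Log2 expression (RMA) of the 7 lysosomal hydrolases on each of 9 arrays, by group, with replicates as symbols, group means as lines and SD as bars (n = 3). All deletion and anergy arrays lie below the naive arrays for Gaa, Hexa, Arsa and Lipa and above them for Arsb, and Gusb and Aga lie within a narrow band.

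Deletion cells were first set against naive cells, the control population. Of the 7 hydrolases, 3 were lower in deletion cells (Gaa, Hexa and Arsa), 1 was higher (Arsb) and 3 did not pass the test (Gusb, Aga and Lipa). The test was limma over all 9 arrays, with p-values adjusted by Benjamini-Hochberg over 1246 probe sets and a threshold of 0.05. On the whole array 10.5% of probe sets were lower and 8.51% were higher in this comparison. The median log2 difference was -0.35 over the 7 genes and -0.02 over all probe sets. Arrays of the 2 groups did not overlap for 5 of the 7 genes, against 31.5% of all probe sets.

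Gaa had log2 values of 6.14, 6.12 and 6.36 in deletion cells, against 7.03, 7.34 and 6.95 in naive cells. Every deletion array was below every naive array. Its level was 1.87-fold lower in deletion cells (95% limits 1.58 to 2.21; log2 difference -0.90 ± 0.11, SE, n = 3 arrays per group; limma adjusted p = 0.000197), and 5.62% of all probe sets differed by more in size.

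Among the sulfatases, Arsa had log2 values of 6.99, 6.99 and 6.93 in deletion cells, against 7.41, 7.48 and 7.33 in naive cells. The groups did not overlap, and the transcript was 1.35-fold lower in deletion cells (1.22 to 1.50; limma adjusted p = 0.000876). Arsb had log2 values of 7.74, 7.88 and 7.64 in deletion cells, against 7.20, 7.22 and 6.87 in naive cells. It went the other way, 1.58-fold higher in deletion cells (1.33 to 1.86; limma adjusted p = 0.00152), again with no overlap. These 2 lysosomal sulfatases, which act on different substrates, therefore moved in opposite directions in the same cells.

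Hexa had log2 values of 7.53, 7.60 and 7.60 in deletion cells, against 8.05, 7.90 and 7.85 in naive cells. It was 1.28-fold lower in deletion cells (1.14 to 1.44; limma adjusted p = 0.00835), a smaller difference than that of Gaa, and 18.9% of all probe sets differed by more in size. Lipa had log2 values of 8.77, 9.01 and 8.68 in deletion cells, against 9.15, 9.25 and 9.10 in naive cells. The groups did not overlap, but the log2 difference of -0.35 ± 0.12 (SE) did not pass (limma adjusted p = 0.0709). It passed in 6 of 16 other settings, among them without deletion replicate 2 (adjusted p = 0.0334) and without anergy replicate 3 (adjusted p = 0.0260), with 4 genes lower in place of 3.

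Gusb had log2 values of 8.22, 8.38 and 8.31 in deletion cells, against 8.10, 8.31 and 8.03 in naive cells. Aga had log2 values of 8.20, 8.30 and 8.15 in deletion cells, against 8.20, 8.26 and 8.03 in naive cells. Both pairs of groups overlapped. The log2 difference of Gusb was 0.16 (95% limits -0.07 to 0.38; limma adjusted p = 0.405) and that of Aga was 0.05 (-0.17 to 0.27; limma adjusted p = 0.850). Gusb passed after quantile normalization (log2 difference 0.23, adjusted p = 0.0157), which gave 2 genes higher in place of 1.

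Anergy cells were then set against the same 3 naive arrays, so this comparison and the one before share their controls. In anergy cells 4 of the 7 genes were lower (Gaa, Hexa, Arsa and Lipa), 2 were higher (Arsb and Gusb) and Aga did not pass. On the whole array 16.1% of probe sets were lower and 10.8% were higher. The median log2 difference was -0.66 over the 7 genes and 0.01 over all probe sets. Arrays of anergy and naive cells did not overlap for 5 of the 7 genes, against 33.9% of all probe sets.

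Lipa, the acid lipase, had log2 values of 8.39, 8.28 and 7.98 in anergy cells. All were below the naive range of 9.10 to 9.25, and the transcript was 1.93-fold lower in anergy cells (1.61 to 2.32; limma adjusted p = 0.00017). Without anergy replicate 3, its lowest array, the log2 difference was -0.83 in place of -0.95 (adjusted p = 0.000444). Gaa had log2 values of 6.40, 6.31 and 6.46 in anergy cells, below the naive range of 6.95 to 7.34, and was 1.64-fold lower (1.39 to 1.94; limma adjusted p = 0.000623).

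Arsa had log2 values of 6.72, 6.59 and 6.59 in anergy cells, below the naive range of 7.33 to 7.48. It was 1.71-fold lower in anergy cells (1.54 to 1.89; limma adjusted p = 1.2e-05), the smallest p among the 7 genes in any of the 3 comparisons. Arsb had log2 values of 8.24, 8.25 and 8.06 in anergy cells, above the naive range of 6.87 to 7.22. It was 2.12-fold higher in anergy cells (1.80 to 2.51; log2 difference 1.09 ± 0.11, SE; limma adjusted p = 3.5e-05), the largest of the 21 differences tested for these genes. In size 5.70% of all probe sets differed by more.

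Hexa had log2 values of 7.33, 7.34 and 7.14 in anergy cells, below the naive range of 7.85 to 8.05, and was 1.58-fold lower (1.40 to 1.79; limma adjusted p = 0.000124). Gusb had log2 values of 8.60, 8.51 and 8.28 in anergy cells, against 8.10, 8.31 and 8.03 in naive cells. Anergy replicate 3 lay below naive replicate 2, and the transcript was 1.25-fold higher in anergy cells (1.07 to 1.46; limma adjusted p = 0.0424). This call was lost in 9 of 16 other settings: after median centring (adjusted p = 0.157), in the fit to only these 2 groups (0.0870), and without any 1 of 7 arrays. Those were deletion replicates 1, 2 and 3 (0.0572, 0.0532 and 0.0612), anergy replicates 1 and 2 (0.146 and 0.118), and naive replicates 1 and 3 (0.127 and 0.154). Aga had log2 values of 8.01, 8.18 and 7.83 in anergy cells, against 8.20, 8.26 and 8.03 in naive cells, and the groups overlapped. Its log2 difference was -0.16 (95% limits -0.38 to 0.06; limma adjusted p = 0.317) and became 0.01 after quantile normalization (adjusted p = 0.945).

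**Figure D2:**
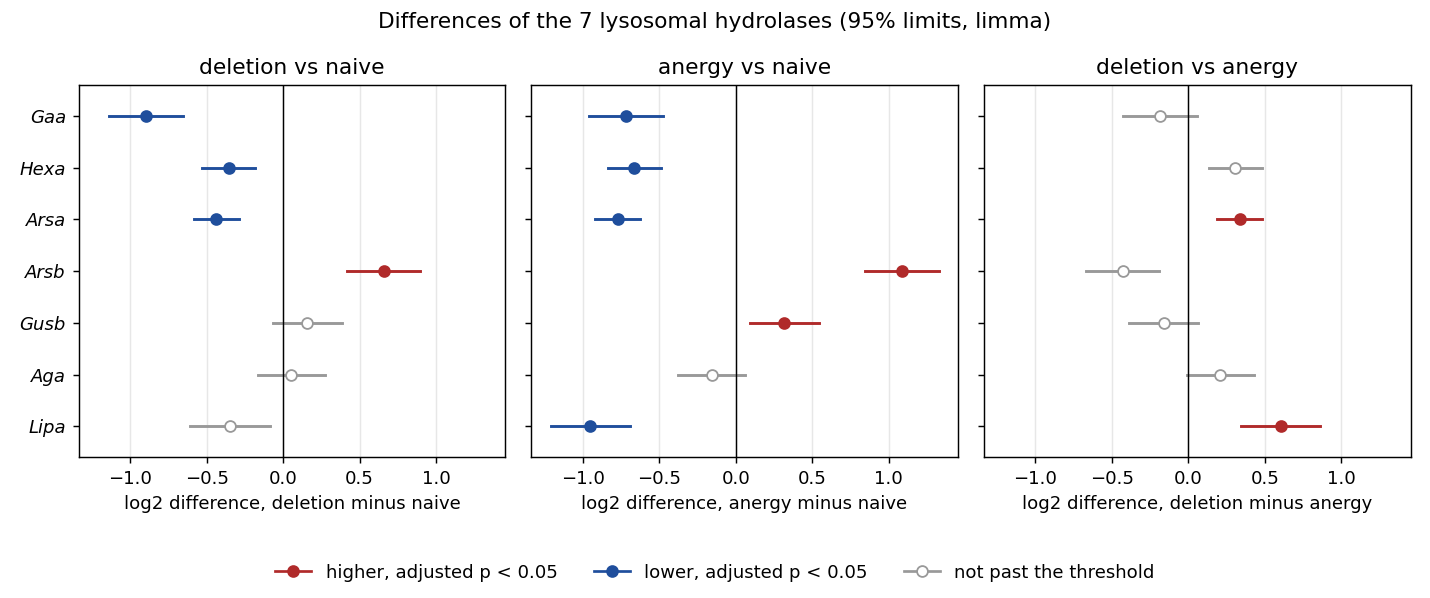
Log2 differences of the 7 hydrolases with 95% limits from limma, in deletion minus naive, anergy minus naive and deletion minus anergy cells; filled points passed an adjusted p of 0.05. Gaa, Hexa and Arsa passed below 0 in both comparisons with naive cells and Arsb passed above 0 in both. Lipa is also below 0 and Gusb above 0 in both, but against naive cells these passed only in anergy cells. Between deletion and anergy cells Arsa and Lipa passed.

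Deletion cells were also compared directly with anergy cells, the comparison the study was designed for and the test of whether the differences from naive cells were unequal. Arsa and Lipa were higher in deletion cells and 0 of the 7 genes were lower by limma (3 higher and 1 lower at an unadjusted p under 0.05); 5 did not pass. On the whole array 2.09% of probe sets were higher and 1.28% were lower by the adjusted p, and 10.2% were higher and 4.9% lower at an unadjusted p under 0.05. The median log2 difference was 0.21 over the 7 genes and -0.01 over all probe sets. Arrays of deletion and anergy cells did not overlap for 4 of the 7 genes (Hexa, Arsa, Arsb and Lipa), against 16.6% of all probe sets.

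Lipa was 1.52-fold higher in deletion cells (1.27 to 1.82; 8.82 ± 0.17 against 8.22 ± 0.21, SD, n = 3 arrays per group; limma adjusted p = 0.0226). The lowest deletion array, at 8.68, was above the highest anergy array, at 8.39, and 2.49% of all probe sets differed by more in size. The call was lost without deletion replicate 2 (adjusted p = 0.0940) or anergy replicate 2 (0.0594), after median centring (0.0571) and in the fit to only these 2 groups (0.0862). Arsa was 1.26-fold higher in deletion cells (1.14 to 1.40; 6.97 ± 0.03 against 6.63 ± 0.08, SD; limma adjusted p = 0.0226). Its call was lost without deletion replicate 1 (adjusted p = 0.0655), 2 (0.0981) or 3 (0.0563), without anergy replicate 2 (0.0758), after quantile normalization (0.0894) and in the fit to only these 2 groups (0.0602). Both calls held without anergy replicate 3, with log2 differences of 0.49 for Lipa and 0.32 for Arsa (adjusted p = 0.0473 for each).

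Hexa and Arsb were the nearest to the threshold. Hexa was 7.58 ± 0.04 in deletion cells and 7.27 ± 0.11 in anergy cells (SD), a log2 difference of 0.31 (95% limits 0.13 to 0.48; limma adjusted p = 0.0642). It passed in none of 16 other settings (adjusted p = 0.0518 to 0.207). Arsb was 7.75 ± 0.12 in deletion cells and 8.18 ± 0.11 in anergy cells, a log2 difference of -0.43 (-0.67 to -0.19; limma adjusted p = 0.0642). With the replicate number as a block, which no label states as a pairing, Arsb passed (adjusted p = 0.00976). It also passed without naive replicate 3 (0.0290), with array weights (0.0158) and after quantile normalization (0.0105). The block then gave 1 gene lower in place of 0.

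For Gaa the order differed, with 6.21 ± 0.13 in deletion cells and 6.39 ± 0.08 in anergy cells, and the arrays of these 2 groups overlapped (log2 difference -0.18, 95% limits -0.42 to 0.06; limma adjusted p = 0.452). Gusb differed by -0.16 (-0.39 to 0.07; limma adjusted p = 0.489), which became -0.29 after quantile normalization (adjusted p = 0.0185). Aga differed by 0.21 (-0.01 to 0.43; limma adjusted p = 0.343). The order of the group means was thus anergy, deletion, naive from low to high for Arsa, Hexa and Lipa, and the reverse for Arsb and Gusb. Of these steps, those of Arsa all passed. Lipa passed between anergy and deletion cells but not between deletion and naive cells, Hexa and Arsb passed against naive cells only, and Gusb passed only between anergy and naive cells.

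**Figure D3:**
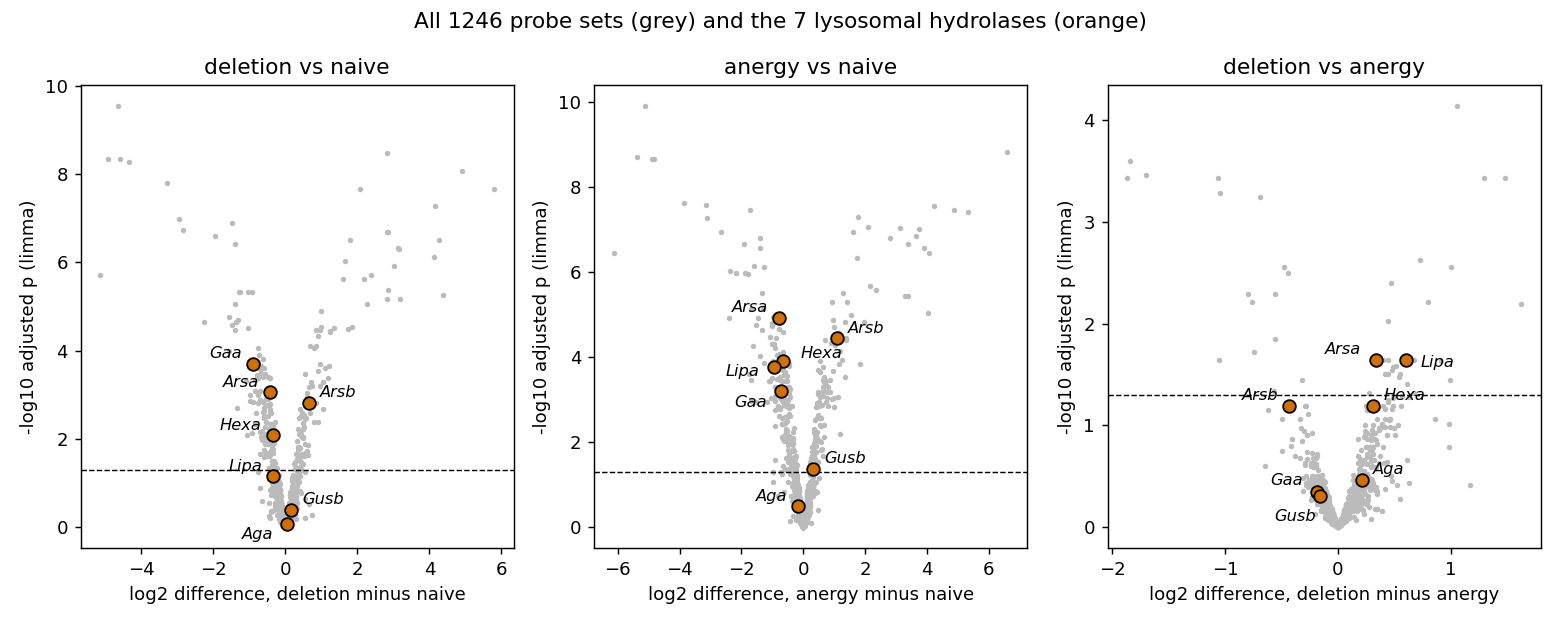
Log2 difference (horizontal) against -log10 of the limma adjusted p (vertical) for all 1246 probe sets in grey and the 7 hydrolases in orange, in 3 comparisons; the dashed line is the threshold of 0.05. The hydrolases lie inside the widest changes of the array, with no difference larger than 1.09 in size. Between deletion and anergy cells 2.49% of all probe sets differed by more than Lipa.

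Other genes of lysosomal breakdown were read from lists of 52 genes, of which 23 had a named probe set. In deletion against naive cells 7 of the 23 were lower, 2 were higher and 14 did not pass, with a median log2 difference of -0.03. In anergy against naive cells 9 were lower, 3 were higher and 11 did not pass, with a median of -0.13. In deletion against anergy cells 1 was higher, 0 were lower by limma (8 and 1 at an unadjusted p under 0.05) and 22 did not pass, with a median of 0.17. The shares of all probe sets called by the adjusted p in these comparisons are those given above; at an unadjusted p under 0.05 they were 10.2% higher and 4.9% lower in deletion against anergy cells.

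Glycosidases other than the 7 genes gave 12 of the 23. Neu1, the lysosomal sialidase, had a log2 difference of -0.72 in deletion against naive cells (limma adjusted p = 0.000267) and -1.02 in anergy against naive cells (1.6e-05). Galc, which removes galactose from galactosylceramide, the lipid that sulfatide becomes once Arsa has removed its sulfate, differed by -0.78 in deletion cells (0.000403) and by -0.61 in anergy cells (0.00134). Idua, the alpha-iduronidase of dermatan and heparan sulfate breakdown, differed by -0.50 in deletion cells (0.0115) and by -0.85 in anergy cells (0.000331). These 3 were lower in both treated groups, as Gaa, Hexa and Arsa were.

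Naglu, an alpha-N-acetylglucosaminidase of heparan sulfate, was lower in anergy against naive cells (log2 difference -0.57; limma adjusted p = 0.0026) and did not pass in deletion against naive cells (-0.15). Manba, the beta-mannosidase of N-glycan breakdown, was higher in deletion than in naive cells by 0.53 (0.0207). In anergy against naive cells Manba differed by 0.23 and did not pass (0.288). Hpse, the heparanase that cuts heparan sulfate chains, was higher in anergy than in naive cells by 0.60 (0.00136). In deletion against naive cells Hpse differed by 0.33 and fell just short (0.0546). Hpse lay low on the arrays, with means of 3.73 in anergy cells and 3.13 in naive cells. Of the remaining sulfatases, Sgsh, which acts on heparan sulfate, was lower in anergy than in naive cells (log2 difference -0.48, adjusted p = 0.00763). The Sgsh probe set carried a suffix that marks binding to several transcripts. Galns did not pass in any comparison. The lipid hydrolases Smpd1 and Asah1 did not pass in any comparison. Like that of Sgsh, the Smpd1 probe set carried a suffix that marks binding to several transcripts.

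All 3 measured cofactors and protective proteins were lower in anergy than in naive cells. Psap, the precursor of the saposins that present lipids to enzymes such as Arsa and Galc, differed by -0.47 in anergy cells (limma adjusted p = 0.000142) and by -0.29 in deletion cells (0.0041). Ctsa, which protects Neu1 and beta-galactosidase, differed by -0.50 in anergy cells (0.000993) and by -0.49 in deletion cells (0.00168). Gm2a, the activator that presents GM2 to the enzyme containing Hexa, differed by -0.33 in anergy against naive cells (0.00856) and did not pass in deletion against naive cells (0.06). It was 1.32-fold higher in deletion than in anergy cells (1.17 to 1.48; 0.0226).

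Igf2r, the mannose 6-phosphate receptor that carries hydrolases to the lysosome, was higher in deletion than in naive cells by 0.42 (limma adjusted p = 0.00819) and in anergy than in naive cells by 0.29 (0.0433). Of the membrane proteins, Mcoln1, a calcium channel of the lysosome, was lower in deletion than in naive cells (log2 difference -0.57, adjusted p = 0.0133). It was also lower in anergy than in naive cells (7.60 ± 0.28 against 8.60 ± 0.16, SD, adjusted p = 0.000312). The Mcoln1 probe set carried a suffix that marks binding to several transcripts. Lamp1 was lower in deletion than in naive cells (log2 difference -0.34, limma adjusted p = 0.00835). In anergy against naive cells Lamp1 differed by -0.22 and fell just short (0.0511). Lamp2 was higher in anergy than in naive cells by 0.63 (0.0205). In deletion against naive cells Lamp2 differed by 0.54 and fell just short (0.0553). The other probe set of Lamp2 differed by -0.01 in anergy and 0.12 in deletion against naive cells and did not pass.

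The calls of these 23 genes between deletion and anergy cells rested on few arrays. Without deletion replicate 2 or 3 or anergy replicate 3 none of them was higher in place of 1, and 3 were higher without anergy replicate 1. Without deletion replicate 1, 1 was lower in place of 0. After median centring or in the fit to only these 2 groups none was higher, and with the replicate block 3 were. In deletion against naive cells 1 gene was higher in place of 2 without deletion replicate 2 or naive replicate 1 or 3. In anergy against naive cells 1 was higher in place of 3 without anergy replicate 1 or 2 or naive replicate 3. The mean log2 value of the 23 was 6.81 on anergy replicate 3, against 7.03 and 6.99 on anergy replicates 1 and 2, and the part of this array's spread in the result was not tested.

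**Figure D4:**
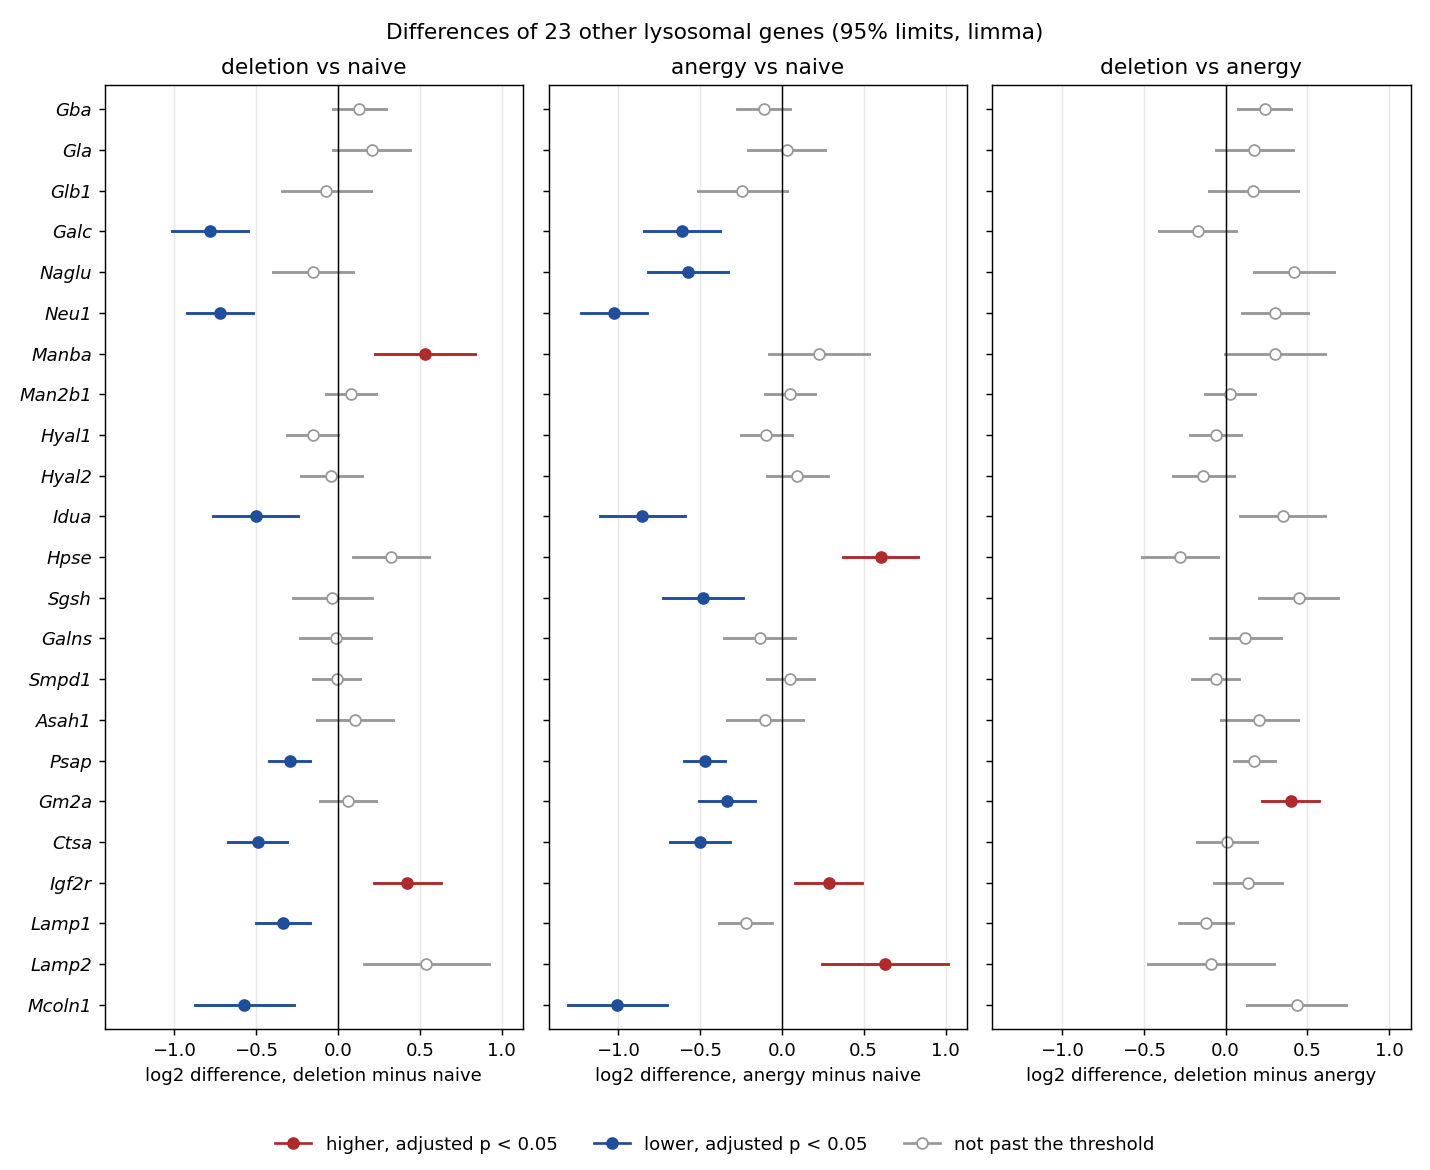
Log2 differences with 95% limits from limma for 23 other lysosomal genes in the same 3 comparisons; filled points passed an adjusted p of 0.05. Against naive cells most filled points are below 0, with Manba, Hpse, Igf2r and Lamp2 above it, and between deletion and anergy cells Gm2a is the filled point.

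For each of the 6 hydrolases that passed in some comparison, the named genes with the most similar pattern were found by the root mean square difference of log2 values over the 9 arrays, each gene centred on its own mean. For Arsa they were Tpst2 (0.050), Jag2 (0.062) and Hexa (0.090), and for Hexa they were Tpst2 (0.075), Jag2 (0.076) and Hdac5 (0.086). So Arsa and Hexa shared their 2 nearest genes, and Hexa was the only 1 of the 7 to be among another's nearest 3. The nearest to Lipa were Notch1 (0.098), Ifnar1 (0.118) and Pigp (0.128), and to Gaa they were Il4ra (0.112), Smo (0.122) and Klrd1 (0.133). The nearest to Arsb were Gnpda1 (0.108), Pmm1 (0.109) and Gmds (0.147), and to Gusb they were Gfpt1 (0.064), Ssr3 (0.071) and Slc35b1 (0.078). These distances describe 9 arrays in 3 groups and carry no test.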

How the data were processed

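Total RNA was extracted with Trizol and 0.5 micrograms were used to make biotin-labelled cRNA for the GLYCOv4 array, per the labels' protocols. What the authors deposited is 1 log2 expression value per probe set and array. Their processing notes name RMA and nothing else, with its version, the build and any filter not given in the sources used here. That the scale is log2 was taken from RMA's usual output and the range of values, 1.67 to 13.86. No detection column was used, so fold changes of dim genes may be understated, and the number of arrays limits the precision.

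Probe sets were named through the RefSeq gene table (GRCm38.p6, used for names only): 963 of 1246 were named, as 909 genes. For a gene with more than 1 probe set the brightest on average was used. A single limma fit (version 3.58.1, R 4.3.3; lmFit and eBayes) took all 9 arrays (6 residual and 3.65 prior degrees of freedom), two-sided, with Benjamini-Hochberg adjustment over 1246 probe sets and a threshold of 0.05. The fit was tested on simulated data with independent noise, so that test did not cover deviations of a whole array. Alternatives were another scaling, a fit to 2 groups, a replicate block, array weights, a filter on dim probe sets, averaged probe sets and leaving out each array. Same-numbered deletion and anergy arrays shared deviations from their group means (r = 0.195, 0.270 and 0.280). For the other comparisons the numbers did not all do so. No label states a pairing, and arrays of unlike number were not compared.

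The 7 genes, the gene lists and the marker lists were chosen with earlier results of these data known, and the promoter motifs after the values were seen. Genes of the other lysosomal lists were named where they passed the threshold, up to 6 per list and comparison with the smallest adjusted p; others named were chosen after their values were seen. One further gene of the lists is not reported here.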

Additional observations from a re-analysis of the deposited data

How the results depend on the processing

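Each of 21 differences (7 genes in 3 comparisons) was recomputed in 16 other settings. Of 336 recomputed values 303 kept their direction and their side of the threshold, 19 lost the call, 12 gained one and 2 changed sign. In some settings only the p-value of these genes could change, and their log2 difference and direction were fixed. These were the fit to 2 groups, the replicate block, the filter on dim probe sets and averaged probe sets. Leaving out an array of the group not compared was another. All calls of Gaa, Hexa, Arsa and Arsb against naive cells, and that of Lipa in anergy against naive cells, held in all 16 settings. The sign changed for Aga alone, which was not called: to -0.013 in deletion against naive cells without naive replicate 3 (up to 0.102 without other arrays), and to 0.0080 in anergy against naive cells after quantile normalization. The cause of the changes below was not tested.

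In deletion against naive cells, quantile normalization gave 2 of the 7 genes higher in place of 1, and of the 23 other lysosomal genes 4 were higher with quantile normalization, a replicate block or array weights and 1 with median centring, in place of 2. In anergy against naive cells 1 of the 7 was higher with median centring or only 2 groups, in place of 2, and of the 23 others 5 were higher with quantile normalization and 1 with median centring, in place of 3. In deletion against anergy cells 1 of the 7 was higher with quantile normalization or median centring and 0 with only 2 groups, in place of 2, while 2 were lower with quantile normalization, 1 with a replicate block and 1 with array weights, in place of 0. Of the 23 others 0 were higher with median centring or only 2 groups, 2 with quantile normalization or a filter on dim probe sets, and 3 with a replicate block or array weights, in place of 1. Over all probe sets in this comparison 13 were higher with median centring, 8 with only 2 groups and 44 with array weights, in place of 26, and 38 were lower with quantile normalization and 31 with array weights, in place of 16.

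Leaving out 1 array in turn gave, in deletion against naive cells, 1 to 3 of the 23 others higher. In anergy against naive cells it gave 1 to 2 of the 7 genes and 1 to 4 of the 23 others higher. In deletion against anergy cells it gave 0 to 2 of the 7 genes higher and 0 to 1 lower, 0 to 3 of the 23 others higher and 0 to 1 lower, and 8 to 30 of all probe sets higher. The replicate block gave Lipa a call in deletion against naive cells (adjusted p = 0.0221) and Arsb one in deletion against anergy cells. It changed no other call of the 7 genes. Arrays of unlike number were not compared, so a pairing by replicate number was not shown. Same-numbered deletion and anergy arrays correlated at 0.195, 0.270 and 0.280. The values were -0.136, 0.118 and -0.142 for deletion and naive arrays, and -0.154, 0.274 and 0.175 for anergy and naive arrays. Without detection values, no gene was called absent.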
